A study of Homo sapiens with 9 samples.

Results

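Binding sites of the splicing factor SF3B1 were examined in 10 human DNA repair genes of the BRCA and Fanconi pathways, namely BRCA1, BARD1, PALB2, BRCA2, BRIP1, FANCM, FANCA, FANCL, FANCD2 and FANCI. The genes were chosen by name, and a site belonged to a gene when the centre of the site lay inside the RefSeq span of the gene on GRCh38. By this rule 393 of the 96852 sites in the list, 0.406%, lay on the strand of one of the 10 genes, and 10 further sites lay inside their spans on the opposite strand. All 10 genes had at least 1 site on their own strand, as did 38.1% of all protein-coding genes.

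The sites came from iCLIP, in which ultraviolet light fixes a protein to the RNA it touches, the protein is pulled down with an antibody, and sequencing marks the crosslinked nucleotide. Cells of K562, an established human leukaemia line, were irradiated at 254 nm with 400 mJ/cm2. The series holds 9 libraries, which are SF3B1 from 3 samples with unmutated SF3B1, SF3B1 from 2 samples heterozygous for the K700E substitution, and U2AF2, a factor that binds the pyrimidine tract beside the 3′ splice site, from 4 samples with unmutated SF3B1. One list of sites was used, named for SF3B1 in unmutated K562, and no list of their own was used for the other 6 libraries. The labels call the line derived from chronic lymphoid leukaemia, whereas K562 is generally known as a chronic myeloid leukaemia line. The SF3B1 lines, unmutated and K700E, carry catalogue numbers of Horizon Discovery, and the U2AF2 cells are from ATCC. The header of the list asks that every replicate of either condition show a site, so the K700E libraries may have contributed to it, and single sites are not assigned to a genotype.

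SF3B1 is the largest protein of the SF3b complex in the U2 small nuclear ribonucleoprotein, which settles on the branch point of an intron ahead of the 3′ splice site. The genes studied here act in 2 linked routes. In homologous recombination the ubiquitin ligase formed by BRCA1 and BARD1 works with PALB2, which connects BRCA1 to BRCA2, and BRCA2 acts on the resected single-stranded DNA. In the Fanconi route FANCM recognises DNA blocked by an interstrand crosslink, a core complex that includes FANCA and the ubiquitin ligase FANCL is brought to the lesion, and the pair FANCD2 and FANCI is monoubiquitinated. BRIP1, a helicase that binds BRCA1, belongs to both.

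The list gives positions only. Every site was 5 nt wide and had a score of 0, no value per replicate is given, and the depth of the libraries is unknown. Intervals below are 95% Wilson intervals that cover counting error alone and treat each site as independent. Sites cluster within genes, so the intervals are likely too narrow, and no spread between cultures can be stated. The number of sites in a gene was not corrected for the amount of its RNA, so fewer sites and less RNA cannot be told apart.

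The sites were spread very unevenly over the 10 genes. FANCA had 110 sites, FANCL 68, FANCD2 60 and FANCI 55, and these 4 Fanconi genes held 293 of the 393 sites, or 74.6%. BRCA1 had 42 sites and BRIP1 had 25. BRCA2 had 13 sites, FANCM had 12, BARD1 had 7 and PALB2 had 1. At least 1 site was present in 38.1% of all 19974 protein-coding genes and in 51.7% of the 6067 protein-coding genes whose spans were as long as those of the 10 genes, 38.1 to 184 kb. At least 10 sites were present in 8 of the 10 genes, against 14.8% of protein-coding genes and 25.6% of those of similar length. At least 50 sites were present in 4 of the 10 genes, against 1.35% and 2.9%. Without sites that also lie in another gene, FANCD2 had 47 and FANCI 46. Only FANCA with 107 and FANCL with 66 then kept at least 50, and the background shares were not recounted this way. Among the 15813 protein-coding genes whose strand is tabulated the shares were 40.4% with at least 1 site and 1.41% with at least 50. Because the genes were chosen by name with results of this list known, these shares describe the genes and are no test.

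**Figure D1:**
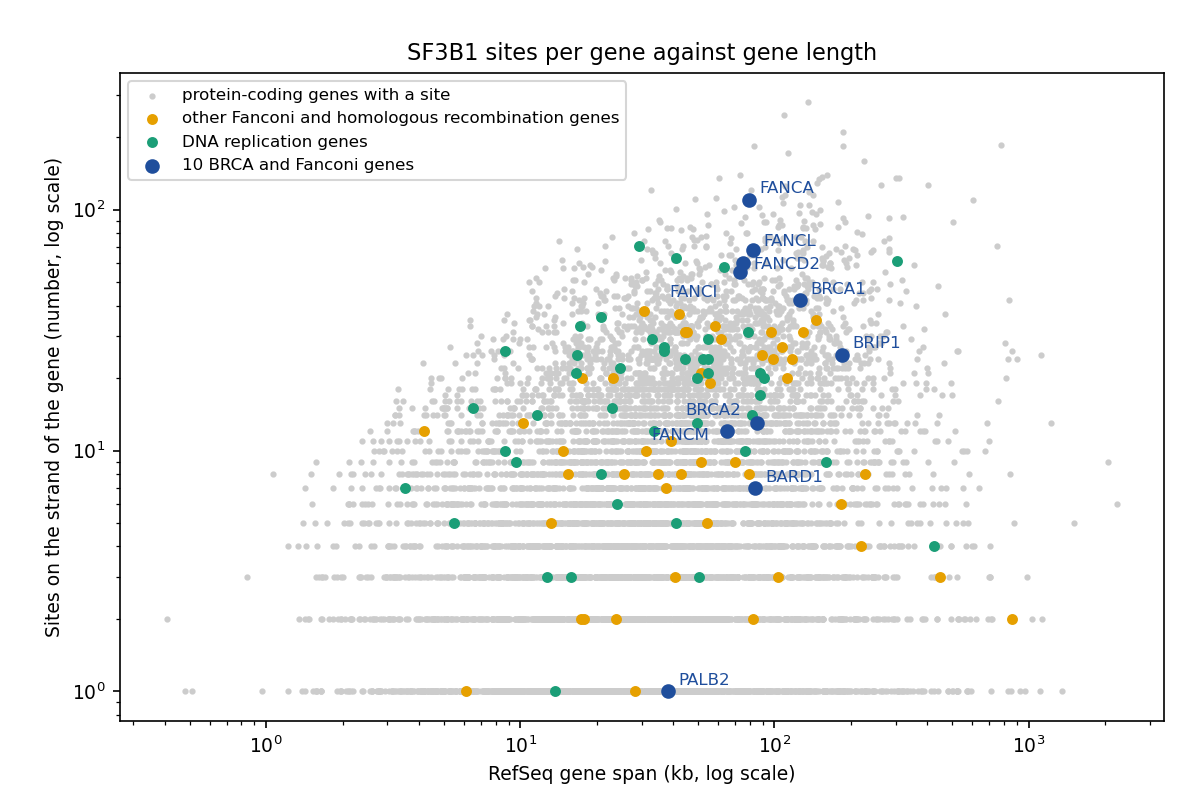
Number of sites on the strand of the gene (vertical axis, log scale) against the RefSeq span in kb (horizontal axis, log scale), 1 point per protein-coding gene with a site. FANCA with 110 sites lies near the upper edge of the grey cloud, while PALB2 with 1 site lies at its lower edge.

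Gene length did not order the genes. BRIP1 had the longest span, 184 kb, and only 0.136 sites per kb. FANCA, with a span of 79.1 kb, had 1.39 sites per kb. In between lay FANCL with 0.828, FANCD2 with 0.795, FANCI with 0.751, BRCA1 with 0.333, FANCM with 0.185 and BRCA2 with 0.153 sites per kb. The lowest densities were 0.0833 in BARD1 and 0.0262 sites per kb in PALB2. Over the 7609 protein-coding genes with a site the median was 0.199 sites per kb, with quartiles of 0.0706 and 0.510. FANCA exceeded 92.5% of these genes in density and 99.6% in the number of sites, where it ranked 28 among all protein-coding genes. FANCL, FANCD2 and FANCI exceeded 85.0%, 84.2% and 83.1% of genes with a site in density. BRCA2 exceeded 42.7%, and PALB2 exceeded 9.98%.

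**Figure D2:**
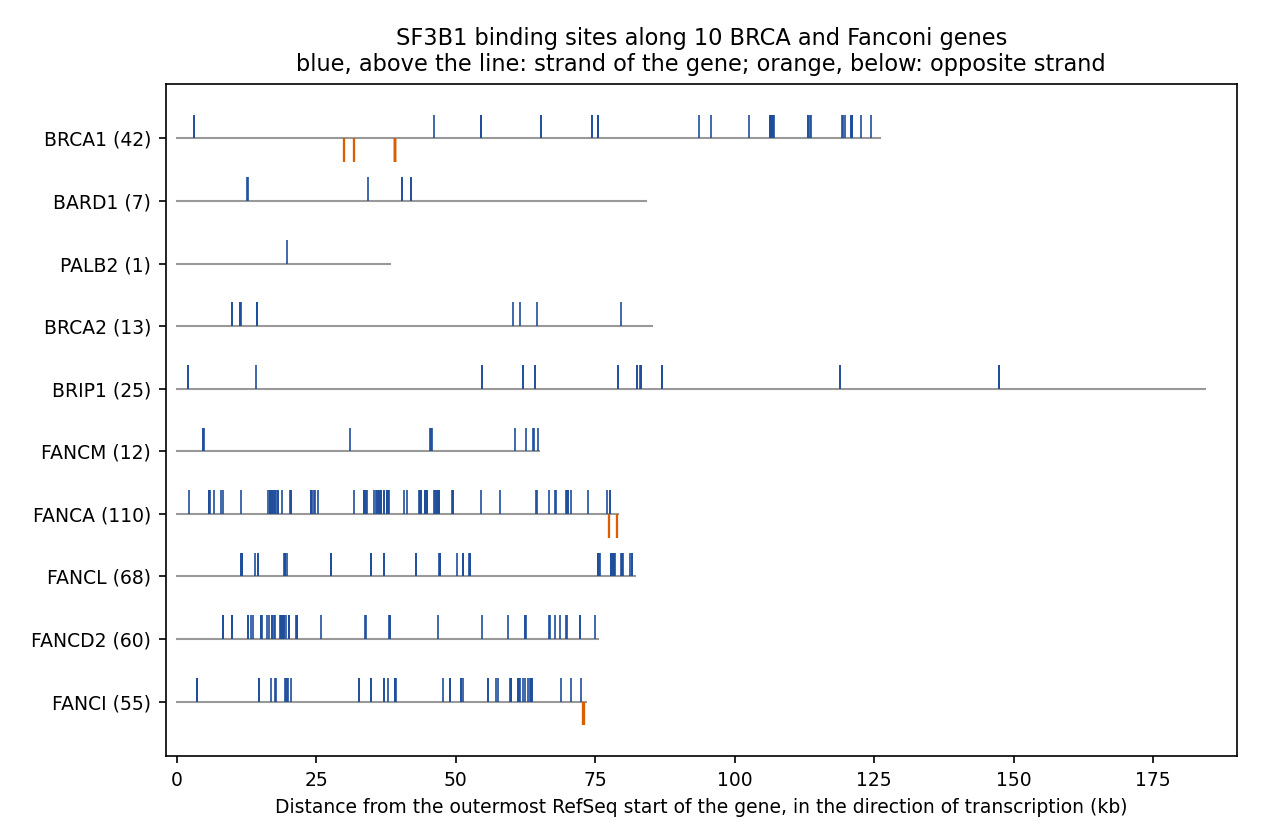
Position of each site along the 10 genes, in kb from the outermost RefSeq start in the direction of transcription (horizontal axis), with 1 row per gene and the number of sites on its strand in brackets. Blue ticks are sites on the strand of the gene and orange ticks are the 10 sites on the opposite strand, 6 of them in the row of BRCA1.

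BRCA1 lies on the minus strand of chromosome 17, from 43044295 to 43170327. RefSeq gives it 2 starts on GRCh38.p14, an inner one at 43125364 and an outer one at 43170327, 44.96 kb further upstream. The long non-coding RNA gene NBR2 begins at 43125557 on the plus strand, 193 bp from the inner start, and is transcribed away from it. The 250 bases ahead of each BRCA1 start are shown. Those of the inner start include the start of NBR2 and lie between the NBR2 sites and the BRCA1 sites downstream of the inner start. Those of the outer start lie upstream of every BRCA1 site. Both windows are written 5′ to 3′ on the minus strand from the RefSeq promoter table, at chr17:43125365-43125614 and chr17:43170328-43170577. Capitals mark the stretch that a local alignment found in both windows, in which 93 of 104 aligned bases, 89.4%, were equal.
BRCA1 inner start: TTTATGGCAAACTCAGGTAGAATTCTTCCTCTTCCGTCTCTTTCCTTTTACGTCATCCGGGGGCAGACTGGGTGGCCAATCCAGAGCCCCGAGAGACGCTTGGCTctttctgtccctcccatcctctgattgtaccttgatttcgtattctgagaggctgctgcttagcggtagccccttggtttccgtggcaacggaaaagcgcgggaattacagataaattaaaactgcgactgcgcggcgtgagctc
BRCA1 outer start: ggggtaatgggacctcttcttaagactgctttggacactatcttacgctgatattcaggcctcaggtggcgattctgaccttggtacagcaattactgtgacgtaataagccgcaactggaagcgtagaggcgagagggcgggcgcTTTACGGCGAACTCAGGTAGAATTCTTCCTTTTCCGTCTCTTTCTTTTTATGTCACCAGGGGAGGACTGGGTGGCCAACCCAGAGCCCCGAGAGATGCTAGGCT
The windows are thus partial copies of each other, and a BRCA1 pseudogene, BRCA1P1, is annotated from 43168070 to 43169954, next to the outer window. No site on either strand lay in the pseudogene or in either window. Reads that fit copies equally well may have been left out there, and their treatment is not given in the sources used here.

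Of the 42 BRCA1 sites, 40 lay downstream of the inner start, and the first of them was centred at 43124165, 1.199 kb below it. Counted over the 81.1 kb from the inner start, BRCA1 had 0.493 sites per kb. The other 2 sites were centred at 43167261 and 43167301, 3.03 kb below the outer start for the nearer one. They form a pair with a spacing of 40 nt, and they also lie in LOC101929767 and LOC124900391, long non-coding RNA genes on the same strand, so their assignment to BRCA1 is uncertain. Between the outer pair and the first inner site was the longest stretch of BRCA1 without a site on its strand, 43.1 kb, and it contains the whole of NBR2.

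The BRCA1 sites were densest towards the end of the gene. The RefSeq span of each gene was divided in the direction of transcription into 3 equal parts, called the opening, middle and closing part. In BRCA1 they held 2, 11 and 29 sites, but its opening part lies wholly upstream of the inner start. Divided from the inner start, the parts held 6, 7 and 27 of the 40 sites. The densest 10 kb held 16 sites between 43056681 and 43064003. The largest cluster, made by joining neighbours at most 60 nt apart, had 7 sites and spanned 43063838 to 43064005, and it was the largest in any of the 10 genes. A cluster of 3 sites lay close by at 43063381 to 43063418. Upstream of this dense part the sites were few and came mainly in pairs, at 43094873 to 43094919, 43095933 to 43095978, 43104975 to 43105012 and 43115802 to 43115842. The members of these pairs were 38.5, 41, 33 and 32.5 nt apart.

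The 6 sites inside the BRCA1 span on the opposite strand all lay in NBR2. NBR2 is 28.1 kb long, from 43125557 to 43153671, and thus had 0.213 sites per kb. Its first 4 sites, centred at 43131148, 43131155, 43131196 and 43131201, fell within 53 nt, and the first lay 5.59 kb from the start of NBR2. The other 2 were centred at 43138568 and 43140332. No site lay in the last 13.3 kb of NBR2, and no minus-strand site lay anywhere in its span. All 6 sites thus lay in the stretch where BRCA1 had none, between its outer pair and its first inner site.

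**Figure D3:**
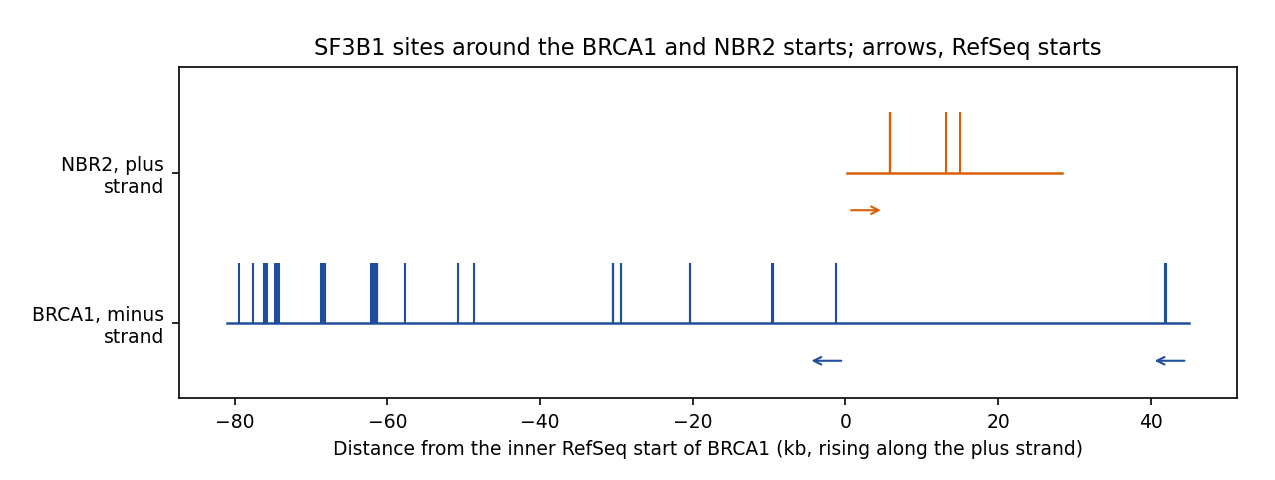
Sites on the minus strand in BRCA1 (blue) and on the plus strand in NBR2 (orange), in kb from the inner RefSeq start of BRCA1 (horizontal axis). Lines are gene spans, vertical ticks are sites and arrows are RefSeq starts; 40 of the 42 BRCA1 sites lie left of 0 and all 6 NBR2 sites lie right of it.

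BARD1, the partner of BRCA1 in the ubiquitin ligase, is a minus-strand gene of chromosome 2 (214725646 to 214809683) and had 7 sites. Its sites stopped early. The last one in the direction of transcription was centred at 214767708, which leaves the final 42.1 kb of the gene without a site. There were 5 sites between 214767708 and 214775412, and the other 2 were centred at 214797021 and 214797166. No cluster of BARD1 had the form of a pair 25 to 45 nt apart.

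PALB2, the link between BRCA1 and BRCA2, had a single site, centred at 23621488 on the minus strand of chromosome 16, near the middle of its span of 23603165 to 23641310. It was the shortest of the 10 genes at 38.1 kb. No other annotated gene overlaps PALB2 or BARD1 in the RefSeq table.

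BRCA2, a plus-strand gene of chromosome 13 (32315077 to 32400268), had 13 sites. They fell into a leading and a trailing group. The leading group held 9 sites between 32325026 and 32329431, within the densest 10 kb of the gene. It ended with a cluster of 4 sites at 32329386 to 32329433, in which 3 sites lay upstream and 1 downstream at a spacing of 37 nt. Then followed 45.9 kb without a site, 53.9% of the span and the longest such stretch among the 10 genes. The trailing group consisted of sites centred at 32375323, 32376624, 32379685 and 32394674, none within 60 nt of another.

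BRIP1, also known as FANCJ, is a minus-strand gene of chromosome 17 (61679139 to 61863528) and had 25 sites. Its sites came in small groups, and 9 of its 13 clusters had more than 1 site. The first 2 sites, centred at 61861618 and 61861585, formed a pair 33 nt apart, the nearer of them 1.91 kb below the start. The densest 10 kb, between 61776574 and 61784474, held 10 sites. The last group in the direction of transcription was a cluster of 4 sites at 61716076 to 61716120, and the 36.9 kb beyond it carried none. The middle part of the span held 16 sites, the opening part 5 and the closing part 4.

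FANCM, which encodes the DNA translocase that anchors the core complex, is a plus-strand gene of chromosome 14 (45135930 to 45200890) and had 12 sites. It had 8 sites in the closing part and 5 in the final 10%, which was 41.7% (19.3% to 68.0%). Its last site, centred at 45200716, lay 174 bp from the end of the gene, nearer to the end than in any other of the 10 genes. Its 3 clusters with more than 1 site were all pairs, with spacings of 37, 36 and 39 nt.

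FANCA, the core complex subunit most often mutated in Fanconi anaemia, carried the most sites of the group. It is a minus-strand gene of chromosome 16 (89737549 to 89816647), with 33 sites in the opening part, 59 in the middle part and 18 in the closing part. The densest 10 kb held 39 sites between 89771814 and 89781366. Single sites dominated in FANCA, with 55 of 74 clusters, and 6 clusters were pairs. The 2 largest clusters had 5 sites each, at 89771812 to 89771866 and at 89779977 to 89780026. The longest stretch without a site was 6.53 kb, the shortest such maximum among the 9 genes with more than 1 site. At its end, 3 sites lay in the overlap with ZNF276, a zinc finger gene on the plus strand.

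FANCL, the ubiquitin ligase of the core complex, is a minus-strand gene of chromosome 2 (58159243 to 58241380) and had 68 sites. No other of the 10 genes had so many sites at its end, since 29 of the 68 lay in the last 10%, 42.6% (31.6% to 54.5%). These 29 sites were packed between 58159846 and 58165926 and were preceded by 22.8 kb without a site. The first site of FANCL was centred at 58229922, 11.5 kb below the start. FANCL also had the most pairs, 10, and 20 of its 34 clusters had more than 1 site. Its 2 largest clusters had 5 sites each, at 58162964 to 58163035 in the dense end and at 58188766 to 58188819 at the far side of the empty stretch. In the latter, 2 sites lay upstream and 3 downstream at a spacing of 38 nt. The last 2 sites of FANCL, centred at 58159846 and 58159852, also lie in VRK2, a kinase gene on the plus strand.

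FANCD2 and FANCI, whose proteins form the monoubiquitinated pair, had similar numbers of sites, in differently placed stretches. FANCD2, a plus-strand gene of chromosome 3 (10026437 to 10101932), had 39 of its 60 sites in the opening part, 7 in the middle part and 14 in the closing part. Its densest 10 kb held 31 sites, 51.7% of the total, between 10039220 and 10048029. FANCI lies on chromosome 15 (89243979 to 89317259) and was counted on the plus strand, which had more sites, since its strand is not tabulated. FANCI had 13, 12 and 30 of its 55 sites in the same order. Its densest 10 kb held 20 sites between 89299745 and 89307664. FANCD2 began with clusters of 4 sites at 10034622 to 10034681 and at 10036234 to 10036331. In FANCI the largest cluster, also of 4 sites, lay at 89292900 to 89292958. FANCD2 had 7 pairs and FANCI 3.

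Both genes overlap others. In FANCD2, 13 sites fell in the overlap with FANCD2OS, a protein-coding gene whose strand the tables do not give. In FANCI, 8 sites fell in LOC124903548, a long non-coding RNA gene on the minus strand, and 1 site fell in POLG, the gene for the mitochondrial DNA polymerase on the minus strand. FANCD2 has pseudogenes on the same chromosome, and FANCD2P1 and FANCD2P2 had 0 sites. Reads that fit a gene and its pseudogene equally well may have been left out or placed in either, and how they were treated is not given in the sources used here.

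**Figure D4:**
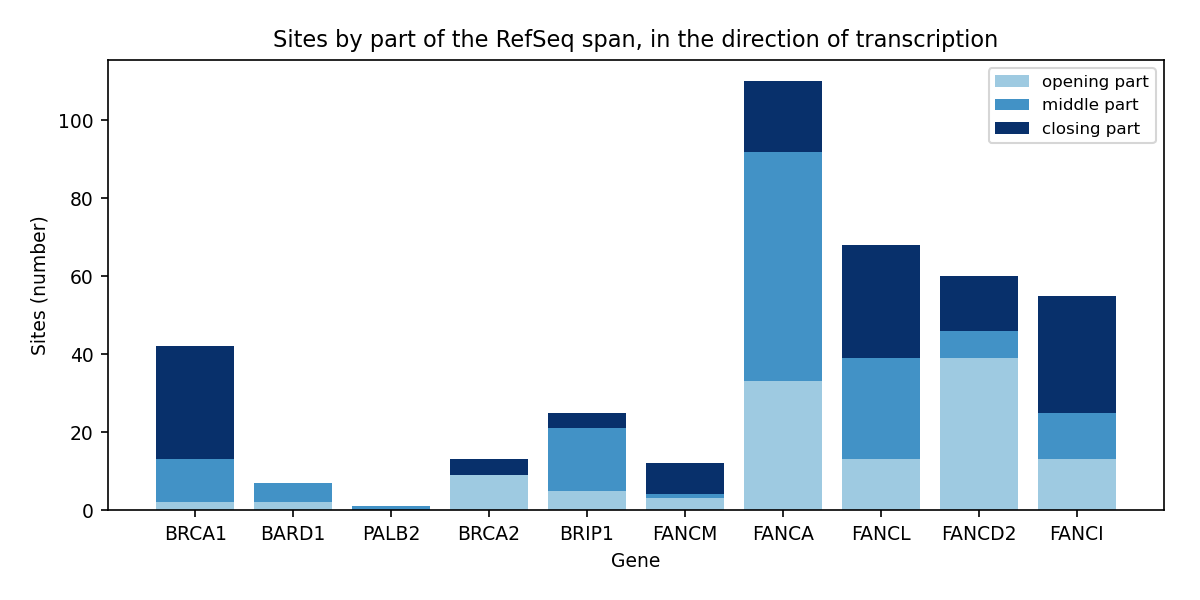
Number of sites (vertical axis) per gene, split into the opening, middle and closing part of the RefSeq span in the direction of transcription. The opening part leads in FANCD2 with 39 of 60 sites, the middle part in FANCA with 59 of 110 and the closing part in BRCA1 with 29 of 42, or 27 of 40 when BRCA1 is divided from its inner start.

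Outside NBR2, only 4 sites lay on the strand opposite to one of the 10 genes. FANCA had 2, centred at 89737762 and 89739140, both in ZNF276. FANCI had 2, centred at 89316868 and 89316874, both in POLG. In each case the overlapping gene is annotated on the strand of the sites and had further sites of its own, with 20 in ZNF276 and 27 in POLG on their strands. All 10 opposite-strand sites thus had a gene annotated on their strand, and the other 7 genes had none.

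Taken over the 10 genes, 59 of 393 sites, 15.01% (11.8% to 18.9%), lay in the last 10% of the gene. Over all protein-coding genes the share was 13.5%, inside the interval for the 10 genes. FANCL alone supplied 29 of the 59, and without it the share was 9.23% (6.54% to 12.9%), so the pooled share describes FANCL more than the group. The first 10% of the gene held 4.58% of the sites (2.92% to 7.12%), against 4.63% over all protein-coding genes. BARD1, PALB2 and BRIP1 had 0 sites in the last 10%. None of the 10 windows of 300 bases that the promoter table holds for 9 of the genes contained a site on either strand. Each window has 250 bases ahead of the start and 50 after it, so most of it precedes the transcript that begins there. The share of such windows without a site over all genes was not counted.

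The median distance between neighbouring sites, pooled over the 10 genes, was 124 nt, against 157 nt over all protein-coding genes and 161 nt over those of similar length. Without FANCL the pooled median was 162.5 nt and without FANCA it was 110 nt, so it depended on single genes. The shares of close neighbours were near those over all protein-coding genes. Neighbours 25 to 45 nt apart made up 14.6% of 383 neighbouring distances (11.4% to 18.5%), against 14.1% over all protein-coding genes. Neighbours 5 to 12 nt apart made up 16.4% (13.1% to 20.5%), against 17.2%. Joining neighbours at most 60 nt apart gave 245 clusters, of which 154, or 62.9%, were single sites, against 63.2% over all protein-coding genes. By gene, the median distance ranged from 52.5 nt in BRIP1 and 53 nt in FANCL to 875 nt in BARD1, among the 9 genes with more than 1 site. FANCA, with the most sites, had a median of 142 nt.

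**Figure D5:**
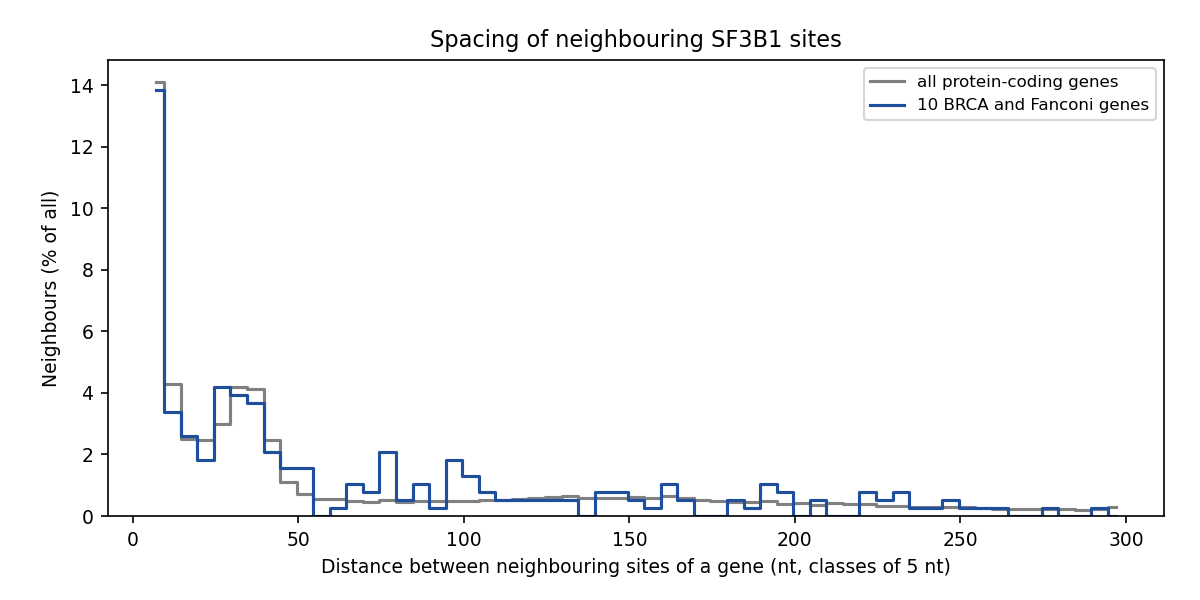
Share of neighbouring distances (vertical axis, % of all) in classes of 5 nt (horizontal axis) in the 10 genes (blue, 383 distances) and in all protein-coding genes (grey). Both lines fall from the shortest class and rise again between 25 and 45 nt, where the 10 genes hold 14.6% and all genes 14.1% of the distances.

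A paired footprint was defined as a cluster that splits into exactly 2 elements, each joined at 12 nt or less, with mean positions 25 to 45 nt apart. The 10 genes had 42 of them, in 8 genes, and these held 107 sites, 27.2% of the total, against 28.6% over all protein-coding genes. The median spacing was 36 nt in the 10 genes (quartiles 32.6 and 38.4 nt) and 36 nt over all protein-coding genes. Equal numbers of sites lay on both sides in 28 footprints, more lay upstream in 7 and more lay downstream in 7. Over all protein-coding genes these were 6450, 2265 and 1739 of 10454 footprints. BARD1 and PALB2 had no paired footprint. Exons and branch points were not used here, so the place of a footprint relative to a splice site is not stated.

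Other genes of the Fanconi and homologous recombination pathways were taken from a list of 54 names. At least 1 site was present in 46, against 38.1% of all protein-coding genes. At least 5 sites were present in 35, against 23.2% of all protein-coding genes. The most sites were found in RAD54L, a DNA motor protein of homologous recombination, with 38 sites, and in EXO1, a nuclease that resects broken ends, with 37. The checkpoint kinase gene ATM had 35, and DNA2, a nuclease and helicase gene, had 33. ATR, MRE11, RFWD3 and WDR48 tied with 31 sites each. No gene of this list reached the number of sites in BRCA1, FANCI, FANCD2, FANCL or FANCA. Sites per kb gave another order. Among the genes of the list named here, UBE2T with 1.26, RAD54L with 1.23 and EXO1 with 0.882 sites per kb exceeded FANCL, FANCD2, FANCI and BRCA1. Some genes of the list not named here exceeded them too. The highest density in the list was 2.87 sites per kb, above the 1.39 of FANCA, and the median over its genes with a site was 0.240. Among further FANC-named core complex genes, FANCE had 10 sites, FANCB 6, FANCC 4 and FANCG 1. BABAM1, CENPS, ERCC4, FAAP24, FANCF, RAD51D, RMI2 and SLX4 had 0. UBE2T, which encodes the ubiquitin-conjugating enzyme that works with FANCL, had 13.

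DNA replication genes, a list of 47 names, were used as a second comparison. At least 1 site was present in 43 of them, against 38.1% of all protein-coding genes. The median over the list was 15 sites, against 8 in the 54 pathway genes and 33.5 in the 10 genes. The lists were not matched to the 10 genes in gene length. TOP2A had 71 sites, CDC45 63, POLA1 61, POLE 58 and MCM3 36, while FEN1, POLA2, POLD4 and POLE4 had 0. Pooled over their spans, the 10 genes had 0.440 sites per kb, the replication genes 0.367 and the other pathway genes 0.157. By the median over genes with a site the order differed, with 0.259 sites per kb in the 10 genes, 0.457 in the replication genes and 0.240 in the other pathway genes. A pooled value gives long genes more weight. Without FANCA the pooled value of the 10 genes was 0.348 sites per kb, below that of the replication genes. The lists were not compared by a test, since each gene has 1 count from 1 merged list.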

How the data were processed

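The data were 1 BED list of SF3B1 sites. Per the file headers, sites are merged and 5 nt wide, and each was seen in every replicate of either condition. Per the submitters' processing notes, FastQC, STAR, UMI-tools and bedtools were used and the builds were GRCh38.p10 and GRCh38.p12; the site caller is not given in the sources used here. The score column deposited by the authors is 0 throughout, and another column holds a running number. Positions were converted to 1-based coordinates and the centre of a site was its position. Gene spans came from the RefSeq table of GRCh38.p14. Strands came from the RefSeq promoter table for 15813 of 19974 protein-coding genes, and otherwise, as for FANCI, from the strand with more sites. No tests were made. The 10 genes and the lists were chosen with earlier results of these data known. Named beyond them are the 5 genes with the most sites in each list, with ties, those with 0 sites and genes overlapping the 10; UBE2T and 4 core complex genes were named after their values were seen, and 1 gene of the lists is not reported here by name. Counting was tested on simulated data in 200 genes with a tabulated strand, and all 200 equalled a direct search. The search used the same rule, so it checks the code only and does not cover the choice of strand made for FANCI. Planned counts at splice sites were not made, since no exons were used. Counting was done in pandas 2.3.3 and NumPy 2.4.6 under Python 3.11.15, intervals in SciPy 1.17.1 and the alignment in Biopython 1.88.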

Additional observations from a re-analysis of the deposited data

How the results depend on the processing

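Of 65 recalculations of 19 results, 64 stayed within 1.5 times for counts or within the counting interval for shares, and 1 moved. Of the 65, 40 were counts of single genes. Some settings, such as the 5′ end as the position, could hardly change a count, so the 64 are no measure of robustness. Leaving out FANCL lowered the share of sites in the last 10% of the gene from 15.01% to 9.23%. The total of 393 sites became 383 with touching sites merged, 358 with 1 site per running number, 364 without sites that lie in another gene and 403 on both strands, and the count in each of the 10 genes stayed within 1.5 times in the first 3 of these and with the 5′ end as the position. Taking BRCA1 from its inner start (its division into parts included), both strands, merged opposite-strand sites, the minimum numbers for the replication genes and the omission of FANCL were chosen after seeing the data. The alternatives for windows at splice sites were not run, since no exons were used. Leaving out single replicates was not possible in a merged list. No paired analysis was possible because replicate values are not part of the merged list. With no read numbers, few sites in PALB2 or BARD1 cannot be told from little RNA.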
